A study of Mus musculus with 20 samples.

Results

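The 10 genes described here encode Rab3 and Rab27 GTPases and the effector proteins that bind them on secretory granules. The GTPases were Rab3a, Rab3b, Rab3d and Rab27a, and the effectors were Sytl4 (granuphilin), Exph5 (exophilin-5), Mlph (melanophilin), Rph3al (Noc2), Rims1 and Rims2. They were taken from the table by symbol, and all 10 were found among its 26211 genes. RNA was sequenced from pancreatic islets, the clusters of endocrine cells in the pancreas, in 10 P2Y14-knockout libraries (KO.1 to KO.10) and 10 wildtype libraries (WT.11 to WT.20), all of the strain C57BL/6 x 129S6. P2ry14 encodes P2Y14, a receptor of extracellular UDP-sugars that signals through G proteins. Islets came from Liberase-digested pancreas, were picked by eye and stayed in culture overnight before RNA was taken. The sources used here do not give how the knockout was made, whether it covers all cells, or the age and sex of the mice. The labels do not tie each library to its own animal, so a p-value here covers spread among the libraries, which may be technical.

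Rab GTPases cycle between a GDP-bound form in the cytosol and a GTP-bound form on membranes, where they recruit effectors. On insulin granules, Rab27a and the Rab3 proteins guide granules to the cell cortex, and their effectors tie granules to the plasma membrane, to myosin motors or to the release machinery. Rab27a loss in mice disturbs pigment granules and lytic granules, and ashen mice, which lack it, also secrete less insulin.

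Promoter windows are shown for 3 of the 10 genes. Rab27a and Sytl4 followed each other across libraries, and Mlph had the smallest p of the 10 between genotypes. The windows are RefSeq sequence of build GRCm38.p6, from 250 bases before to 50 bases after the annotated start, given 5′ to 3′ on the strand of the gene. Capitals mark E-boxes (CANNTG), the motif bound by basic helix-loop-helix factors. The Rab27a window is chr9:73044560-73044859 on the plus strand, the Sytl4 window is chrX:133981763-133982062 on the minus strand, and the Mlph window is chr1:90914850-90915149 on the plus strand.
Rab27a: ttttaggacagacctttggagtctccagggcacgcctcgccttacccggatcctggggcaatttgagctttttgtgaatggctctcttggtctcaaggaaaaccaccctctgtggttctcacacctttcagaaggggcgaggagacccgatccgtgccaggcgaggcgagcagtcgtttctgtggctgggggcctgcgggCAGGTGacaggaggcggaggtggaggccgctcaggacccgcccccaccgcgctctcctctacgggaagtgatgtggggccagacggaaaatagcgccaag
Sytl4: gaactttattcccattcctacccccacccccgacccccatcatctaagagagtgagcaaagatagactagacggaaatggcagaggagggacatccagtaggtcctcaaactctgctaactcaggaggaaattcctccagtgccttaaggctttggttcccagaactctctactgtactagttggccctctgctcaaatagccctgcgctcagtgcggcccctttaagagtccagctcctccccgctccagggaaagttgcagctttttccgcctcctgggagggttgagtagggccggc
Mlph: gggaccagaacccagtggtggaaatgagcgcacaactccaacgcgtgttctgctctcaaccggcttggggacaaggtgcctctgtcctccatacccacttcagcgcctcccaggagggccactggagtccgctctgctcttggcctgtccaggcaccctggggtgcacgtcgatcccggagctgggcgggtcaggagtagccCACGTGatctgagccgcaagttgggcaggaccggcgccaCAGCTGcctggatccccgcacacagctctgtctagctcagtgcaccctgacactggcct

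In all, 9 of the 10 genes matched the RefSeq table, with 11 windows, since Rab3a and Rab27a each had a second start. On either strand, an E-box stood in 7 of these 11 windows, against 72.3% of all 32851 mouse windows of the same length. The Rab27a window above held 1 E-box, and the window of its second start held 6. The Mlph window held 2 E-boxes. A GC box (GGGCGG) stood in 8 of the 11 windows and in 35.7% of all windows. The Sytl4 window held none of the 5 motifs searched, which besides these were CCAAT (37.4% of all windows), TGACG (20.8%) and TATAAA (13.6%). Some of these motifs can overlap each other in their end letters. These are matches of letters and were not read as binding sites.

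Reads summed over genes ranged from 34520628 to 199847246 per library, with medians of 92323083 in KO and 105776893 in WT. P2ry14 averaged 51.2 ± 31.4 normalized read counts in KO and 151 ± 67.4 in WT (SD, n = 10 each), with a log2 fold change of −1.97 and an adjusted p of 0.244 by limma. Genes made by acinar cells, the exocrine cells around the islets, took 23.1 ± 9.27% of reads in KO and 22.1 ± 9.15% in WT (SD, n = 10 each), over 35 listed genes in the table. Single libraries ranged from 8.43% to 34.1% in KO and from 6.58% to 33.8% in WT. The islet label was met by a list of 17 beta cell markers, insulin genes among them, whose summed normalized read count was 15530907 to 38289452 in KO and 14904290 to 37121767 in WT. None of the listed markers of any cell type was at 0 in every library.

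Over all genes, 49 of 17482 tested genes (0.28%) passed an adjusted p under 0.05 by limma, 28 higher and 21 lower in KO. All 10 Rab3, Rab27 and effector genes were tested and 0 of them passed. DESeq2 called 1 of the 10, Mlph, where it called 0.784% of all genes, and edgeR called 0. The log2 fold change was negative for 9 of the 10 and positive for Rab3a alone, with a median of −0.24, while over all tested genes the median was −0.002. Scaled to reads outside the acinar list, which moved the median of all tested genes to −0.18, Rab3a was also negative at −0.086, and the signs of Rab3d and Rims1 changed when some single libraries were left out. An unadjusted p under 0.05 by limma, with lower values in KO, was reached by 3 of the 10 (Mlph, Rph3al and Sytl4), and by 4.63% of all tested genes. In each of the 10 genes the KO and WT values overlapped, as in all but 6 tested genes (0.0343% did not overlap).

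**Figure D1:**
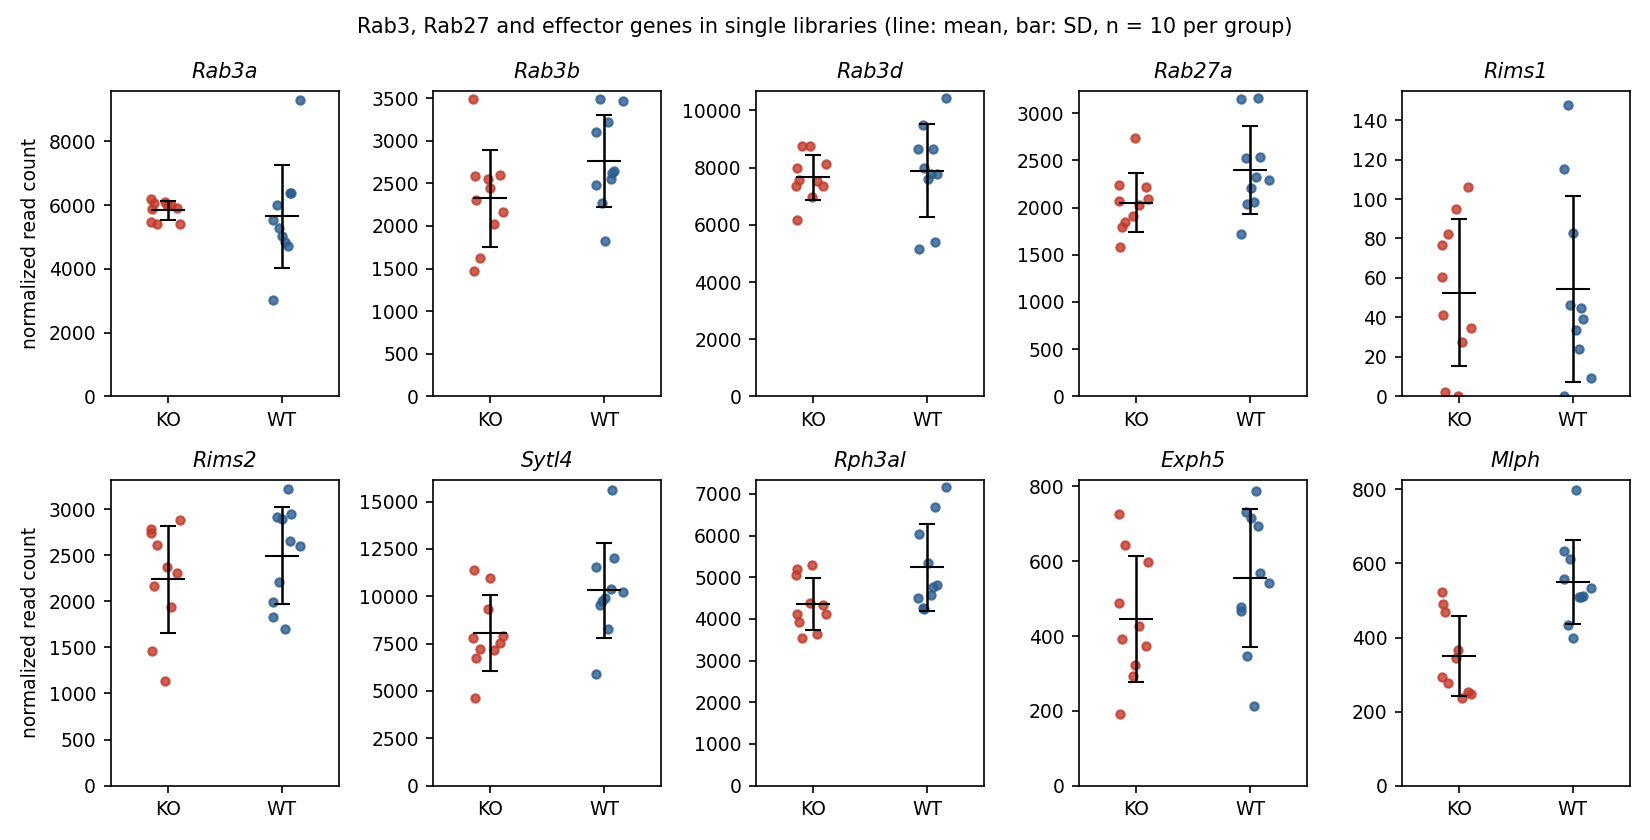
Normalized read count (vertical axes, each from 0) of the 10 genes in single libraries, KO left and WT right, with the mean and SD of 10 libraries per group. The Mlph points show 7 KO libraries below the lowest WT library at 400, and the Rab3a points lie close together in KO, between 5408 and 6183, and far apart in WT, between 3024 and 9283.

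Rab27a, the GTPase that brings granuphilin to insulin granules, had normalized read counts of 1582 at the lowest, 2052 at the median and 2738 at the highest in KO, against 1724, 2306 and 3161 in WT. In 9 of 10 KO libraries it lay below the WT median, and the groups overlapped over most of their range. Its log2 fold change was −0.22 (SE 0.11, 95% interval −0.45 to 0.02), with an adjusted p of 0.587 by limma. Its paralog Rab27b, also a granule GTPase, averaged 349 ± 157 in KO and 315 ± 193 in WT (SD, n = 10 each), with a log2 fold change of 0.31 (interval −0.53 to 1.15, limma adjusted p = 0.847). Per kb of exon, Rab27a held 94.0 ± 3.14% of the summed Rab27a and Rab27b level in KO and 95.2 ± 3.36% in WT (SD, n = 10 each).

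Rab3a, the main Rab3 of synaptic vesicles and neuroendocrine granules, had normalized read counts of 5408, 5952 and 6183 at the lowest, median and highest in KO, against 3024, 5413 and 9283 in WT. The medians lay close together while the spread did not. The coefficient of variation was 5.12% in KO and 28.5% in WT, and the SD of log2 values was 0.075 in KO and 0.411 in WT. A WT-over-KO SD ratio as large as that of Rab3a, 5.48, was seen in 0.0286% of tested genes, whose median ratio was 0.926. WT.16 (9283) and WT.20 (3024) lay at the ends of the WT range, and without these 2 libraries the WT SD was 0.172 and the ratio 2.29. The log2 fold change was 0.10 (SE 0.13, interval −0.17 to 0.37, limma adjusted p = 0.850), and it was 0.0035 without WT.20 and 0.18 without WT.16.

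Rab3d, a Rab3 also known from zymogen granules of exocrine cells, had normalized read counts of 6170, 7547 and 8770 in KO, against 5146, 7892 and 10432 in WT, at the lowest, median and highest. As for Rab3a, the highest and lowest WT values were those of WT.16 and WT.20, and the SD ratio of 2.12 was reached by 2.29% of tested genes. Its log2 fold change was −0.020 (interval −0.26 to 0.22, limma adjusted p = 0.973). Rab3b, which also acts in exocytosis, had 1469, 2373 and 3489 in KO, against 1828, 2632 and 3487 in WT. A single KO library, KO.1, lay above the WT median, and its 3489 was level with the highest WT library. The log2 fold change of Rab3b was −0.26 (SE 0.14, interval −0.56 to 0.03, limma adjusted p = 0.610). It was −0.0051 with a list of delta and PP cell markers as a covariate. Of its exon bases, 9.0% lie under a gene on the opposite strand, 8030443G20Rik, and the library kit does not mark strand.

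Per kb of exon, Rab3a made up 51.3 ± 2.43% of the summed level of the Rab3 genes in KO and 48.1 ± 5.48% in WT (SD, n = 10 each). Rab3d made up 35.6 ± 3.06% in KO and 36.2 ± 4.41% in WT, and Rab3b 12.8 ± 2.49% in KO and 15.3 ± 2.96% in WT. Rab3c, the remaining paralog, held 0.316% in KO and 0.336% in WT, averaging 193 normalized read counts in KO and 207 in WT with a log2 fold change of −0.085 (limma adjusted p = 0.936). Thus Rab3a was the largest share and Rab3c the smallest in both genotypes.

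Sytl4 encodes granuphilin, which binds Rab27a and syntaxin and docks insulin granules at the plasma membrane. It had normalized read counts of 4606, 7651 and 11408 in KO, against 5917, 10080 and 15604 in WT, at the lowest, median and highest. In 8 of 10 KO libraries it lay below the WT median, whereas KO.5 and KO.7 lay above it. The log2 fold change was −0.36 (SE 0.16, interval −0.69 to −0.03), with an unadjusted p of 0.0337 and an adjusted p of 0.525 by limma.

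Exph5 encodes exophilin-5 (Slac2-b), another Rab27 effector. It had 193, 409 and 726 normalized read counts in KO, against 213, 556 and 788 in WT, and the groups overlapped almost fully. Its log2 fold change was −0.32 (SE 0.24, interval −0.83 to 0.18, limma adjusted p = 0.720), and it was −0.20 without KO.10.

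Mlph encodes melanophilin, which links Rab27a to myosin Va and moves pigment granules in melanocytes. It had normalized read counts of 236, 319 and 523 in KO, against 400, 522 and 798 in WT, at the lowest, median and highest. In 7 KO libraries Mlph was between 236 and 366, below the lowest WT library, and the other 3, KO.8, KO.10 and KO.1, had 468, 490 and 523, within the WT range. Conversely, 5 WT libraries exceeded the highest KO library, and all 10 KO libraries lay below the WT mean. Mlph averaged 350 ± 108 in KO and 550 ± 112 in WT (SD, n = 10 each). The log2 fold change was −0.69 (SE 0.16, interval −1.02 to −0.35), with an unadjusted p of 3.53e-04 and an adjusted p of 0.0811 by limma, the value nearest to the threshold among the 10 genes. In order of p, Mlph stood at rank 76 of 17482 tested genes. The adjusted p was 0.0234 by DESeq2 and 0.110 by edgeR, and without KO.1 or KO.10 it was 0.0435 or 0.0493 by limma, so the call depends on the tool and on single libraries.

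Rph3al encodes Noc2, a rabphilin relative that binds Rab3 and Rab27 and is required for regulated secretion from endocrine and exocrine cells. It had normalized read counts of 3550, 4237 and 5296 in KO, against 4239, 4792 and 7159 in WT, at the lowest, median and highest. In 5 KO libraries it lay below the lowest WT library, and 4 WT libraries exceeded the highest KO library. The log2 fold change was −0.25 (SE 0.11, interval −0.48 to −0.03), with an unadjusted p of 0.0310 and an adjusted p of 0.518 by limma.

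Rims2, the large Rab3-binding scaffold that places calcium channels and Munc13 at release sites, had normalized read counts of 1139, 2334 and 2885 in KO, against 1703, 2627 and 3214 in WT. KO.6 and KO.10 lay below all WT libraries and the other 8 KO libraries lay among them. Its log2 fold change was −0.18 (SE 0.16, interval −0.52 to 0.16, limma adjusted p = 0.778), and it was −0.076 without KO.6 and −0.12 without KO.10. Rims1, the main brain form, was near the lower limit of measurement, with 0, 50.8 and 105.9 in KO, against 0, 42.0 and 147.6 in WT. KO.7 and WT.20 had 0 reads, which allows up to 6.11 and 4.43 normalized read counts there, for counting error only. Its log2 fold change of −0.11 had an interval of −1.98 to 1.76 (limma adjusted p = 0.983), so that a difference of severalfold in either direction was not detectable. Over the summed Rims1 to Rims4 level per kb, Rims2 held 31.5% in KO and 30.5% in WT, Rims1 held 1.08% in KO and 1.03% in WT, and the short form Rims3 held 65.9% in KO and 67.1% in WT.

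**Figure D2:**
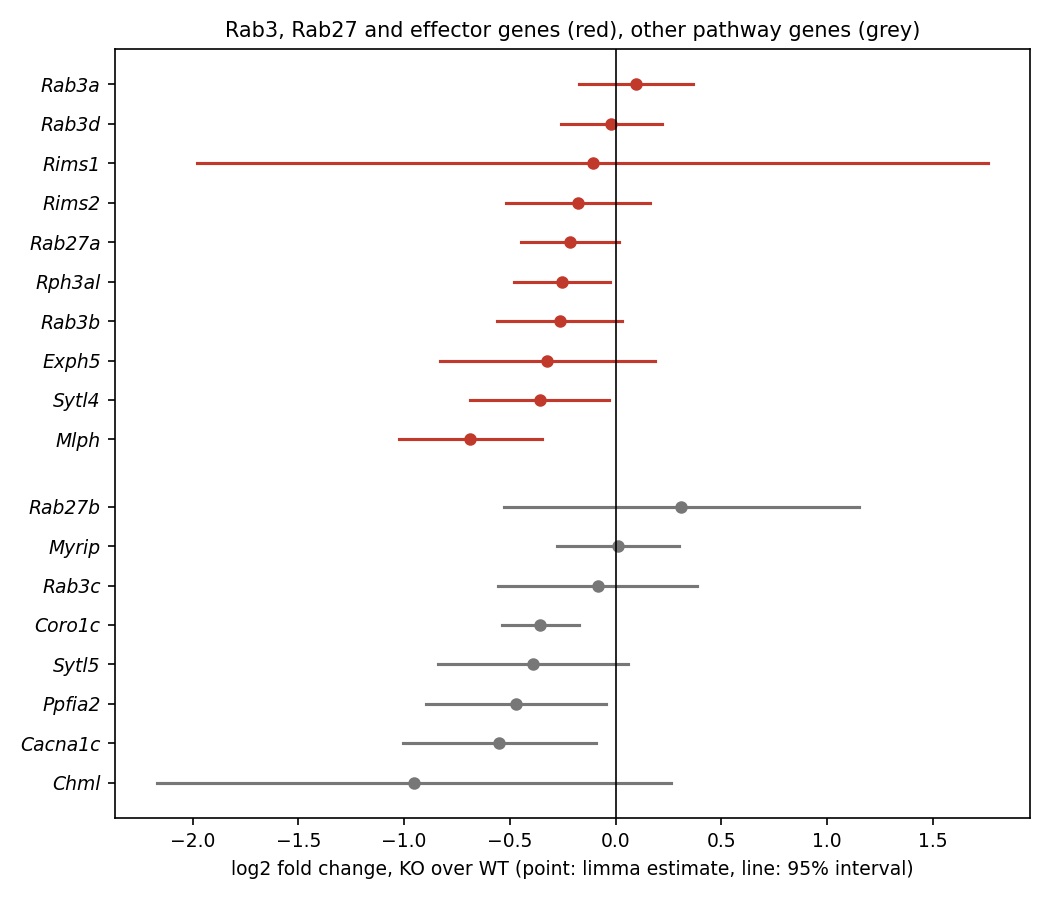
Log2 fold change (KO over WT, horizontal axis) by limma with its 95% interval, for the 10 genes in red and 8 other genes of the pathway in grey. The intervals of Mlph (−1.02 to −0.35), Sytl4 and Rph3al lie below 0, and the interval of Rims1 spans −1.98 to 1.76.

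Marker lists of islet cells were also lower on average in KO. In the beta cell list 13 of 17 genes had a negative log2 fold change, with a median of −0.19, in the alpha cell list 7 of 9, with a median of −0.56 and a summed level of 593567 to 1943880 in KO and 1282547 to 2417770 in WT, and in the delta and PP list 6 of 6, with a median of −0.53 and 124463 to 630126 in KO and 256110 to 561573 in WT. None of these list members passed the adjusted threshold by limma. In bulk RNA, fewer cells of a type and less RNA per cell cannot be told apart. With the mean of the beta cell list as a covariate, the log2 fold change was −0.16 for Sytl4, −0.10 for Rab27a, −0.17 for Rph3al, −0.084 for Exph5 and −0.020 for Rims2, all nearer to 0, whereas that of Rab3a was 0.25 and that of Mlph was −0.79. With the delta and PP list as a covariate the values moved otherwise, to −0.72 for Exph5, −0.38 for Rims2 and −0.42 for Sytl4, farther from 0, and to −0.16 for Rab27a, −0.12 for Rph3al and −0.55 for Mlph (limma adjusted p = 0.172), nearer to 0. In the macrophage list 6 of 8 genes had a positive log2 fold change, with a median of 0.51 and a summed level of 4776 to 21010 in KO and 3870 to 19256 in WT. With that list as a covariate Mlph had a log2 fold change of −0.78 and an adjusted p of 0.0366 by limma. In that fit Sytl4 was at −0.23, Rab27a at −0.13, Rph3al at −0.23, Exph5 at −0.088 and Rims2 at −0.027, also nearer to 0. Rab3a at 0.12, Rab3b at −0.32 and Rab3d at −0.057 were farther from 0. With the alpha list as a covariate Sytl4 was at −0.14, Rab27a at −0.12, Rph3al at −0.18, Exph5 at −0.16 and Rims2 at −0.048. There Rab3a was at 0.23 and Mlph at −0.77. Moves towards 0 were thus not particular to the beta cell list.

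Levels were compared between genes per kb of exon, as normalized read counts per kb averaged over the 20 libraries. Rab3a stood first at 2582, followed by Rab3d at 1853, Sytl4 at 1793, Rph3al at 1259, Rab3b at 722, Rab27a at 574, Rims2 at 228, Mlph at 84.0, Exph5 at 47.6 and Rims1 at 7.26. The highest and lowest of the 10 thus differed by orders of magnitude. By genotype, Mlph was at 65.3 ± 20.2 in KO and 103 ± 20.96 in WT and Exph5 at 42.4 ± 15.95 in KO and 52.7 ± 17.5 in WT (SD, n = 10 each). Some neighbours in this order were not separated in single libraries. Rab3d exceeded Sytl4 in 14 of 20 libraries, Rab3b exceeded Rab27a in 14 of 20, and Sytl4 exceeded Rph3al in 18 of 20. By group mean, Rab3d was above Sytl4 in KO (1825 against 1573) but below it in WT (1881 against 2013). Mlph exceeded Exph5 in 7 of 10 KO and 10 of 10 WT libraries. The other 5 neighbouring pairs kept their order in 20 of 20 libraries.

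**Figure D3:**
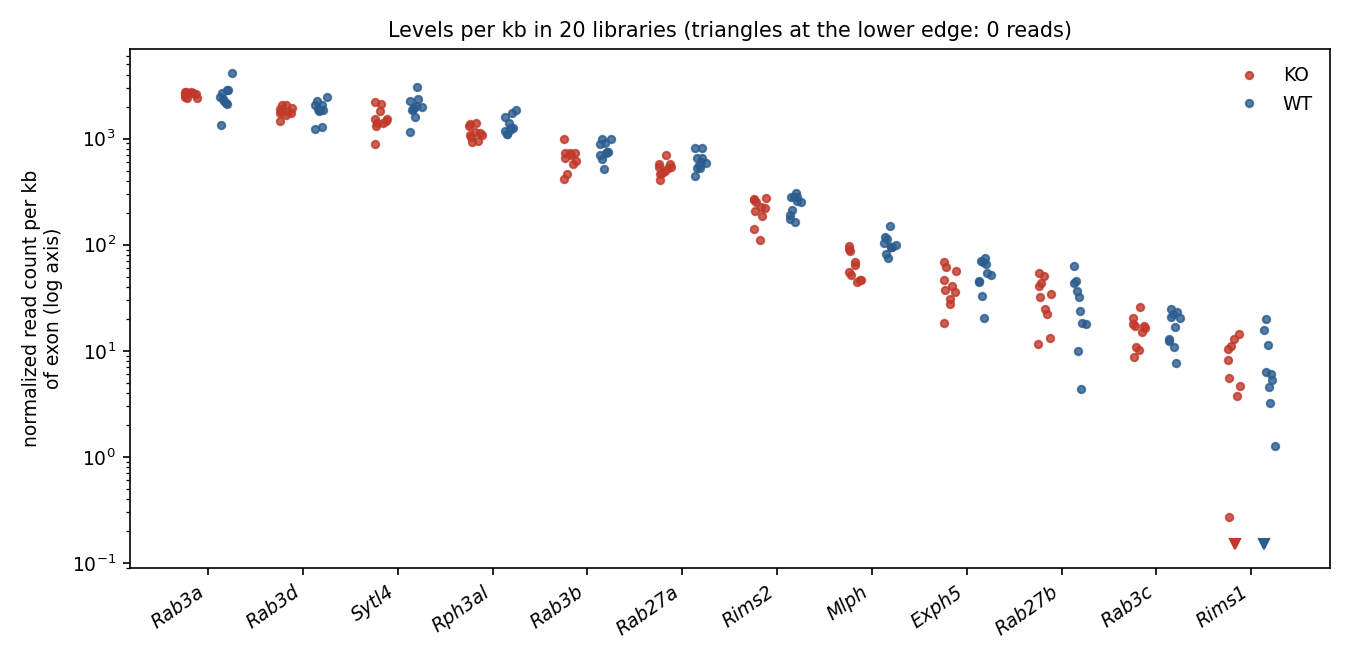
Normalized read count per kb of exon (log axis) of the 10 genes, Rab27b and Rab3c in each library, KO left of WT, ordered by their mean, with triangles for libraries at 0 reads. Rab3a is highest and Rims1 lowest, and Rab3d and Sytl4 overlap.

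Within genotypes, Rab27a and its effector Sytl4 followed each other across libraries. After removal of the group means, log2 values of the pair had r = 0.84 and rho = 0.76 over 20 libraries, with two-sided permutation p values of 1e-05, the smallest 100000 permutations can give, and 0.00021, and adjusted p values of 0.00045 and 0.00472 over 45 pairs of the 10 genes. The correlation was 0.81 within KO and 0.87 within WT, and 0.76 without the 2 libraries farthest from the median. KO.10 was the lowest of all 20 libraries in both genes, with 1582 for Rab27a and 4606 for Sytl4, and WT.19 was the highest in both, with 3161 and 15604. Among 14437 other tested protein-coding genes, Sytl4 stood at rank 8 by its correlation with Rab27a, and Rab27a at rank 9 by its correlation with Sytl4. The correlation was 0.76 after the beta cell list was removed, 0.78 after acinar share and 0.78 after an index of long against short transcripts.

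Rims2 and Exph5 formed the other pair, with r = 0.80 and rho = 0.86 over 20 libraries (permutation p = 2e-05 and 1e-05, adjusted p = 0.00045 for both over 45 pairs). The correlation was 0.78 within KO, 0.85 within WT and 0.81 without the 2 libraries farthest from the median. Unlike the Rab27a and Sytl4 pair, it was not rare among genes, since Exph5 stood at rank 154 for Rims2 and Rims2 at rank 407 for Exph5. The index, the mean log2 level of 2582 genes with at least 8000 exon bases less that of 1983 genes with at most 2000, was 2.03 ± 0.49 in KO and 2.25 ± 0.40 in WT (SD, n = 10 each). The 10 genes themselves were left out of it. With the index as a covariate, the log2 fold change was −0.068 for Exph5 and −0.038 for Rims2, nearer to 0. It was −0.77 for Mlph and −0.34 for Rab3b, farther from 0. The correlation of Rims2 with Exph5 was 0.74 after the beta cell list was removed, 0.72 after acinar share and 0.44 after this index. Exon lengths were 10389 bases for Rims2 and 10519 for Exph5, and 3879 for Rab27a and 5125 for Sytl4. The other 43 pairs did not pass, the nearest being Exph5 with Mlph at r = −0.63 (permutation test, adjusted p = 0.0637) and Rab3d with Rab27a at r = −0.63 (adjusted p = 0.0639).

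**Figure D4:**
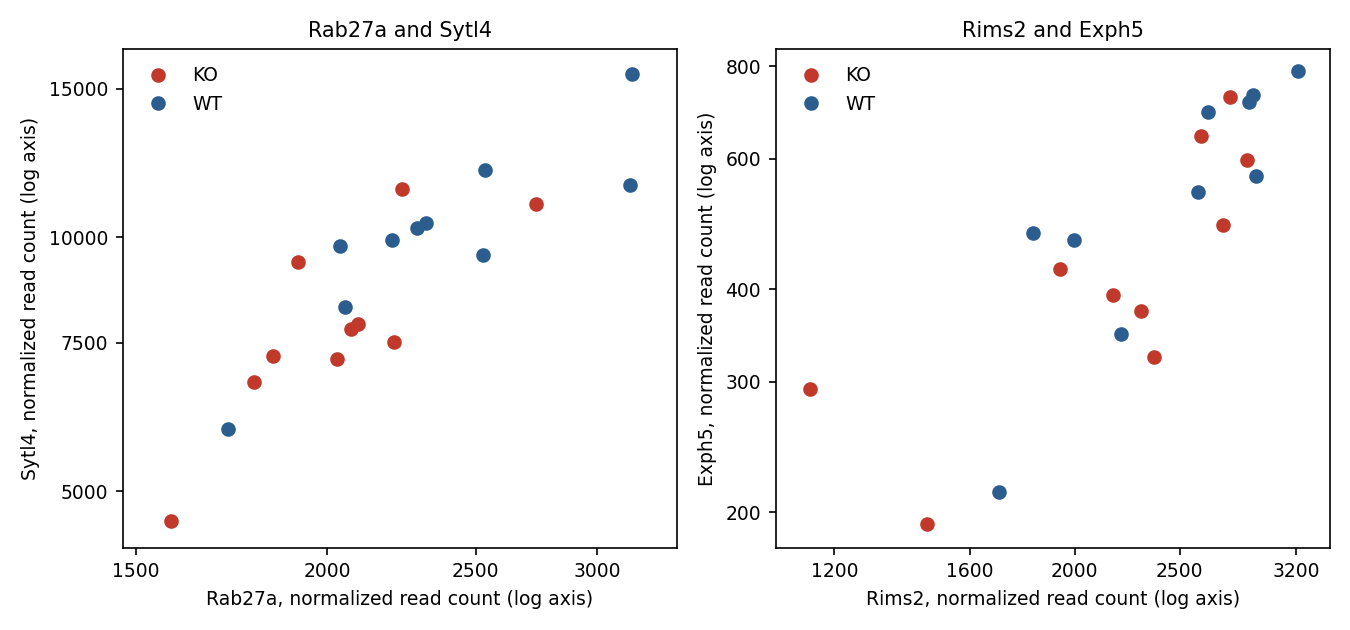
Normalized read counts (log axes) of Rab27a against Sytl4 and of Rims2 against Exph5 in 10 KO and 10 WT libraries, each point being 1 library. Both pairs follow a rising band in KO and in WT, with r = 0.84 and r = 0.80 after removal of the group means.

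Of 20 relations of the 10 genes with the long-transcript index and the beta cell list, those of Exph5, Rims2 and Sytl4 with the index passed an adjusted permutation p of 0.05. Exph5 had r = 0.90 and rho = 0.89 over 20 libraries (permutation test, adjusted p = 0.0002 and 0.0004), with 0.90 in both KO and WT and 0.85 without the 2 farthest libraries. For Rims2 the values were r = 0.75 and rho = 0.81 (permutation test, adjusted p = 0.003 and 0.0006), with 0.70 within KO, 0.83 within WT and 0.70 without the 2 farthest libraries. For Sytl4 they were r = 0.70 and rho = 0.61 (permutation test, adjusted p = 0.0066 and 0.0222), with 0.70 within both genotypes and 0.51 without the 2 farthest libraries. Sytl4 and Rab3a also passed with the beta cell list. Sytl4 had r = 0.64 and rho = 0.64 (permutation test, adjusted p = 0.0117 and 0.0177), with 0.82 within KO, 0.52 within WT and 0.57 without the 2 farthest libraries. Rab3a had r = 0.60 and rho = 0.68 (permutation test, adjusted p = 0.0179 and 0.0177), with 0.31 within KO, 0.73 within WT and 0.71 without the 2 farthest libraries. Rab27a passed with the beta list by rho alone, 0.61 (permutation test, adjusted p = 0.0222), against r = 0.55 (adjusted p = 0.0559), with 0.86 within KO, 0.37 within WT and 0.43 without the 2 farthest libraries. Relations of Mlph, Rph3al, Rab3b, Rab3d and Rims1 did not pass with either measure. The index was chosen after the data were seen, and the adjustment covers these 20 relations only. The share of all tested genes related to either score as strongly was not computed, so the passes may not be particular to these genes. Relations with the other marker lists were not tested, and some were of similar size. The macrophage list had r = −0.66 with Exph5 and −0.64 with Rims2, and the duct list had −0.60 with Rims2.

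Likeness between genes was the Pearson correlation of log2 values over 20 libraries, after removal of the group means. The genes most like a given gene were taken from 14438 tested protein-coding genes. For Rab27a they included Slc38a4 (r = 0.88) and Rfx6 (0.87), and for Sytl4 they were Fer1l6 (0.90), Gad1 (0.90) and 4833439L19Rik (0.89). Rph3al had Wnt4 (0.76), Slc43a2 (0.71) and 2310022B05Rik (0.71). Rims2 had Pbrm1 (0.92), Armcx4 (0.90) and Pcm1 (0.90), with exon lengths of 8.85, 8.00 and 7.46 kb against a median of 4.38 kb. Rab3d had Ttc39c (0.88), Qsox2 (0.86) and Pdk1 (0.85). Exph5, added to this comparison after its values were seen, had Akap13 (0.96), Mast4 (0.95) and Trip11 (0.94), with exon lengths of 20.9, 32.3 and 10.2 kb.

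The share of acinar RNA differed several times over between islet preparations of the same genotype, and the slope of each gene on it was fitted with genotype in the model. Among all tested genes 1098 (6.28%) had a slope past an adjusted p of 0.05 by limma, and all 35 acinar genes were among them, as their choice implies. Of the 10 genes 0 had, the lowest adjusted p being 0.109 for Rims2, while 5 had an unadjusted p under 0.05, as had 22.5% of all tested genes. Slopes, as log2 change per 10 percentage points of acinar reads, were −0.33 for Exph5, −0.22 for Rims2, −0.21 for Sytl4 and −0.14 for Rab27a. They were −0.083 for Rph3al, −0.055 for Rims1 and −0.033 for Rab3a, and were positive for Rab3b at 0.079, Mlph at 0.12 and Rab3d at 0.13. Scaled to reads outside the acinar list, the slopes of all tested genes shifted down to a median of −0.25, and those of Rab3b, Mlph and Rab3d were then −0.16, −0.12 and −0.11, still above that median. In that scaling the other slopes than those of Rab3b, Mlph, Rab3d and Rims1, 6 in number and all negative, passed the threshold, as did the slopes of 45.9% of all tested genes in either direction. Rab27b, which also serves exocrine cells, rose with acinar share, with a slope of 0.76 (interval 0.41 to 1.11, limma adjusted p = 0.00770).

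**Figure D5:**
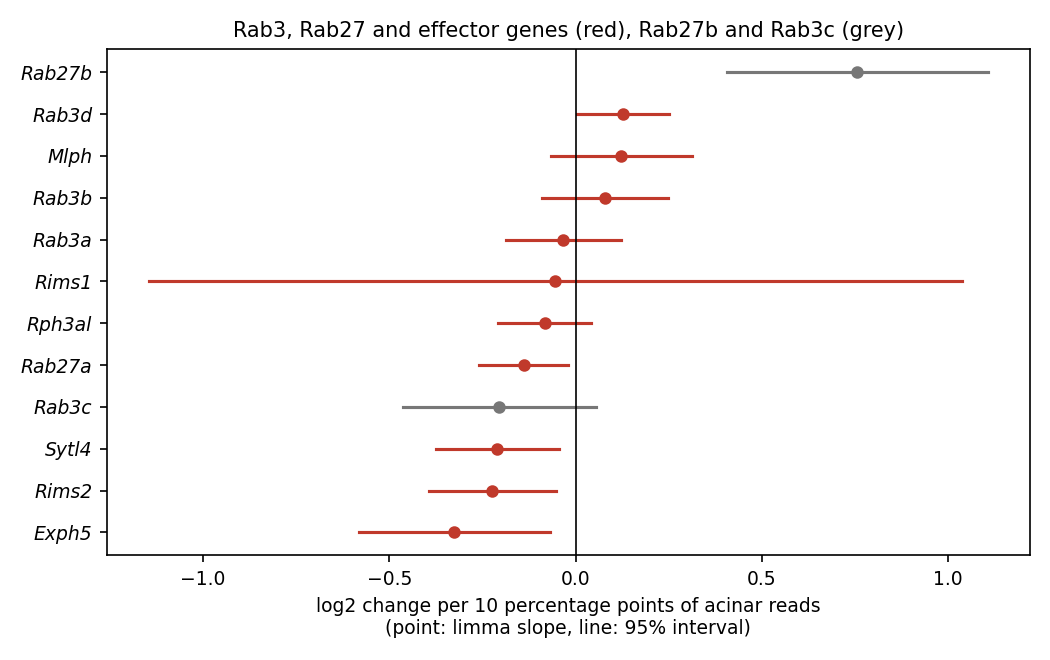
Slope of log2 level per 10 percentage points of acinar reads (horizontal axis) by limma with its 95% interval, for the 10 genes in red and Rab27b and Rab3c in grey. Rab27b stands apart at 0.76, and Rab3d, Mlph and Rab3b have the positive slopes among the 10 genes. Scaled to reads outside the acinar list, these 3 slopes were negative but above the median of all tested genes, −0.25.

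Among 51 other genes of the pathway, 50 were tested and 1, Myo7a, passed in KO against WT, with 21 positive and 29 negative log2 fold changes and a median of −0.084. Myo7a encodes myosin VIIa, which Rab27a reaches through Myrip in retinal pigment epithelium. It rose to 841 ± 349 normalized read counts in KO, against 21.3 ± 25.3 in WT (SD, n = 10 each), with a log2 fold change of 6.54 (SE 0.84, limma adjusted p = 3.53e-04). On recovered reads the log2 fold change was smaller, 5.30 by DESeq2 and 5.27 by edgeR. Its KO values ran from 79.7 to 1332 and its WT values from 0 to 62.7, without overlap. Myrip itself averaged 292 in KO and 291 in WT, with a log2 fold change of 0.011 (limma adjusted p = 0.991).

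Of the 18 regulators of the Rab cycle 0 passed, with 11 positive and 7 negative log2 fold changes and a median of 0.018. Chml, an escort protein for newly made Rabs, was low, averaging 21.6 normalized read counts in KO and 35.4 in WT, with 0 to 101 reads per library. The log2 fold change of Chml was −0.95 (interval −2.17 to 0.26, limma adjusted p = 0.652), and −0.70 by DESeq2. Of 9 tested further effectors 0 passed, with 2 positive and 7 negative log2 fold changes and a median of −0.27. Coro1c, a coronin that binds GDP-bound Rab27a, had 1409 to 2091 normalized read counts in KO, against 1823 to 2627 in WT, and 7 KO libraries lay below the lowest WT library. Its log2 fold change was −0.36 (SE 0.09, interval −0.54 to −0.17), with an adjusted p of 0.104 by limma, 0.0136 by DESeq2 and 0.0466 with library weights. Sytl5, a granuphilin relative, averaged 856 in KO and 1141 in WT (log2 fold change −0.39, limma adjusted p = 0.619). Rph3a, which encodes rabphilin, averaged 1.21 in KO and 2.46 in WT and was too low to be tested.

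Of 21 partners of the effectors, Myo7a alone passed. Next by p came Cacna1c, the L-type calcium channel subunit Cav1.2, which averaged 3020 ± 1114 in KO and 4416 ± 1642 in WT (SD, n = 10 each), with a log2 fold change of −0.55 (limma adjusted p = 0.4657). Ppfia2, a liprin scaffold that binds Rim proteins, averaged 137 ± 35.3 in KO and 196 ± 62.0 in WT (SD, n = 10 each), with a log2 fold change of −0.47 (limma adjusted p = 0.518). Slopes on acinar share passed for 2 of the 50 tested pathway genes besides Rab27b, where 6.28% of all tested genes passed. Rims4, a short Rim protein, had a slope of 0.62 (limma adjusted p = 0.0152) and Rapgef4, the cAMP sensor Epac2 that binds Rims2, had a slope of −0.24 (limma adjusted p = 0.0141).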

How the data were processed

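The deposited table holds read counts per gene normalized by DESeq, per the name given to the table, and was handled as a signal unit, that is, counts divided by a size factor per library. Per the submitters' processing notes, FastQC, TopHat 1.3.3, Bowtie 0.9.9, Cufflinks 1.3.0, DESeq 1.16.0 and build mm9 were used, without a role or order. The sources used here give no read counter or annotation. Values were whole multiples of a step, so whole reads were recovered for 100% of values within 0.05 reads. WT columns carry the numbers 11 to 20 and the labels 1 to 10, so WT libraries have no replicate number of their own.

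Names (23950 of 26211) and exon lengths came from GENCODE M21 (GRCm38), with no coordinates printed from it. Genes with a mean of at least 10 were tested with limma 3.58.1 (R 4.3.3, mean trend) on log2(value + 1), Benjamini-Hochberg adjusted over all genes, and fold changes are on that scale, which understates changes of genes low in all libraries and can overstate those of genes near 0 in single libraries, as for Myo7a. Alternatives used edgeR 4.0.16 and DESeq2 1.42.0 on recovered reads. Permutations ran in Python 3.11.15 with scipy 1.17.1, within genotypes. The fit was first tested on simulated data. The 10 genes and the lists were chosen with earlier results of these data known. Named pathway genes were those past the threshold and the 2 others with the smallest p per list, with Rab3c, Rab27b, Myrip and Rph3a always, and likeness was set for 5 genes. Some genes that this rule takes are not reported here.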

Additional observations from a re-analysis of the deposited data

How the results depend on the processing

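The number of genes past the threshold was 49 by limma, 27 to 74 when 1 library was left out (27 without KO.4, 31 without WT.19, 32 without KO.8 or KO.9 and 74 without KO.6), 29 with a mean of at least 100, 137 with DESeq2, 163 with library weights, 23, 21 and 89 with the beta, alpha, or delta and PP list as a covariate, and 80 with the long-transcript index as a covariate. Of the 10 Rab3, Rab27 and effector genes, 0 passed, 0 to 1 when 1 library was left out, and 1 (Mlph in each) when scaled to reads outside the acinar list (log2 fold change −0.87, adjusted p = 0.0151 by limma), with DESeq2, and with the macrophage list or the long-transcript index as a covariate. Leaving out 1 library gave Mlph −0.76 to −0.62 (adjusted p 0.0435 to 0.167), and the other alternatives gave −0.87 to −0.55 (0.0151 to 0.172). The other pathway genes gave 1 call, and 2 with DESeq2 and with library weights, Coro1c being the added gene. The median of −0.24 over the 10 genes was −0.27 to −0.19 with 1 library left out, −0.13 with the alpha list, −0.11 with the beta list, the macrophage list or the long-transcript index and −0.27 with the delta and PP list as a covariate, and −0.42 when scaled to reads outside the acinar list, which moved the median of all tested genes to −0.18. In that scaling Rab3a was at −0.086. Rims1 was at 0.016 with the alpha list as a covariate, −1.43 with the delta and PP list as a covariate and −0.62 with library weights. With 1 library left out, Rab3a ranged from 0.0035 to 0.18, Rims2 from −0.24 to −0.076, Exph5 from −0.47 to −0.20, Rab3d ranged from −0.085 to 0.028 and Rims1 from −0.66 to 0.44. Slopes on acinar share passed for 0 of the 10 genes, 0 to 1 with 1 library left out (Exph5 without KO.2), 6 when scaled to reads outside the acinar list, and 1 (Sytl4) with quantile normalization. Scaled to reads outside the acinar list, the slopes of Rab3b, Rab3d and Mlph were −0.16, −0.11 and −0.12, above the median of −0.25 over all tested genes. Without the 2 libraries farthest from the median acinar share they were −0.077 for Rab3b and 0.38 for Rims1, whose slope ranged from −0.20 to 0.12 with 1 library left out. The cause of these changes was not tested. Covariates for the alpha, delta and PP and macrophage lists and the long-transcript index were chosen after seeing the data. No paired analysis was possible because the WT columns do not carry the replicate numbers of the labels. The labels also do not state that KO and WT samples of the same number form a pair. Of the 10 genes Rims1 had the fewest reads, 0 to 308 per library. These did not always follow depth, with 2 reads in KO.8 (101415662 reads over all genes) and 74 in KO.9 (64398879).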
